A study of Mus musculus with 12 samples.

Results

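The nonclassical class I genes of the mouse H2 region were examined as a group of 8 genes, H2-Q4, H2-Q6, H2-Q7, H2-Q10, H2-T22, H2-T23, H2-T24 and H2-M3, out of 40481 genes in the deposited table. They were taken by symbol, and were chosen by measured values, the low CPM of H2-Q6 and H2-Q7 in wild-type fetal liver cells, so that low level is a description here and was not tested. H2-Q6 and H2-Q7 share sequence and were summed into 1 value, which left 7 rows for testing. RNA was sequenced in 12 libraries of mouse hematopoietic stem cells (HSCs), 3 in each of 4 groups: WT cells and cells with the inducible ETV6-RUNX1 allele (iE/R), each taken from embryos (fetal liver, E14.5) or from 8-week-old animals (bone marrow). ETV6-RUNX1 joins a pair of transcription factor genes and occurs in childhood B-cell leukemia. All 4 groups, the WT cells included, were sorted and then grown for 3 days in an HSC expansion culture that held 1 µg/mL doxycycline, the inducer. The sources used here do not give the strain, the H2 haplotype, the sex or the number of animals per library, nor where the inducible allele sits or which promoter drives it. Nothing says that the replicates came from separate animals, so p-values measure the spread between these libraries.

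Class I molecules are surface proteins made of a heavy chain and beta-2-microglobulin that hold a peptide for inspection by T cells and natural killer cells. The classical chains, H2-K and H2-D, are abundant and highly variable between strains, whereas the nonclassical Q, T and M chains vary less, bind narrower sets of peptides or none, and are read by particular receptors. Most class I genes respond to interferons, through IRF and other factors, and to NLRC5, a coactivator that binds with the RFX, CREB and NF-Y factors at their promoters. On bone marrow stem cells class I molecules are known for deciding whether natural killer cells spare or reject a graft. The number of Q and T genes differs between mouse haplotypes.

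Promoter windows of RefSeq (GRCm38.p6, 300 bases around the start) were found for 7 of the 8 genes, all but H2-T24. A stretch of each is printed because these 7 genes were all higher with ETV6-RUNX1 in bone marrow and the stretches hold the elements that class I promoters are known for. They run 5′ to 3′ along the gene's strand, and capitals mark matches on either strand to the motifs described next.
H2-Q4 (chr17:35379423-35379547, plus strand): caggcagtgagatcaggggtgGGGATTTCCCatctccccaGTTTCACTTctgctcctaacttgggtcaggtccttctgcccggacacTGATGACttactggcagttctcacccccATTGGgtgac
H2-Q6 (chr17:35424657-35424780, plus strand): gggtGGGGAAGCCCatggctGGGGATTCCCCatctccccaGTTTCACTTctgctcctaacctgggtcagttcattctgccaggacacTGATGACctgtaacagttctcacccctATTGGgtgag
H2-Q7 (chr17:35439001-35439124, plus strand): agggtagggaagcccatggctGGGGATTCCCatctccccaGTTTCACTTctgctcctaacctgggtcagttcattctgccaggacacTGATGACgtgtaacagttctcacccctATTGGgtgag
H2-Q10 (chr17:35469893-35470032, plus strand): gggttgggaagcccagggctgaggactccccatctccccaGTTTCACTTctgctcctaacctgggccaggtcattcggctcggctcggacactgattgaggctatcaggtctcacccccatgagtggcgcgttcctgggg
H2-T22 (chr17:36042821-36042974, minus strand): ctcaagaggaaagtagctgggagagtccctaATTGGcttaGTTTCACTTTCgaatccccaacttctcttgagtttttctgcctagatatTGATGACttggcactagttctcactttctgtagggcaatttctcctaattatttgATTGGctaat
H2-T23 (chr17:36032744-36032873, minus strand): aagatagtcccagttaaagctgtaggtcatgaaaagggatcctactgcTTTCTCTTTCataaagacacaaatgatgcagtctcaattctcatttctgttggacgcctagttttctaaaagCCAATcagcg
H2-M3 (chr17:37270092-37270222, plus strand): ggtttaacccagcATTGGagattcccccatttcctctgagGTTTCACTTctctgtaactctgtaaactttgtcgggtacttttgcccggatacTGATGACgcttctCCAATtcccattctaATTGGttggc
The string GTTTCACTT, the longest of those held by the largest number of these windows, resembles the interferon element of class I promoters. It was found in 6 of 7 members and in 0.399% of 32851 promoter windows of the same length. H2-T23 lacked it. In H2-Q4, H2-Q6, H2-Q7 and H2-Q10 it lies within a longer run that these genes share, so its finds in the members are not independent. The interferon-stimulated response element (GAAA, any 2 bases, GAAA) was found in H2-T22 and H2-T23, and in 3.44% of all windows, and in H2-T22 it overlapped GTTTCACTT. A kappa B-like pattern (GGG, any 4 bases, CCC) was found in H2-Q4, H2-Q6 and H2-Q7, and in 11.9% of windows. The CRE-like motif TGATGAC was found in 5 members (H2-Q4, H2-Q6, H2-Q7, H2-T22 and H2-M3) and in 3.23% of windows, and CCAAT in 6 members (all but H2-Q10) and in 37.4%. GTTTCACTT was derived from these windows, and TGATGAC and CCAAT were chosen after they had been read, so their counts describe the members and test nothing. H2-Q6 and H2-Q7, which were low in WT fetal liver, and H2-Q4 held the same 4 motifs.

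Library totals were 32.3 to 64.5 M reads, and 3 reads, the floor used here, equalled 0.0465 to 0.0928 CPM (reads scaled to a common library total). In the libraries labelled ETV6-RUNX1, Runx1 was 143 to 194 CPM in bone marrow and 218 to 244 in fetal liver, against 86.7 to 105 and 110.4 to 136 in WT. Etv6 was 193 to 253 and 174 to 185 CPM, against 132 to 183 and 103 to 149. These totals include reads of the normal genes. Xist, which is transcribed in female cells, was 0.175 to 1.27 CPM in bone marrow and 51.7 to 89.3 in those from fetal liver, so the sex of the cells and the source cannot be told apart. The Y-linked gene Ddx3y was 23.5 to 41.5 CPM in WT and 69.1 to 75.2 in ETV6-RUNX1 fetal liver. All 10 HSC markers averaged at least 1 CPM in every group. Their summed level was 1554 to 2289 CPM in WT libraries and 2471 to 3599 CPM in ETV6-RUNX1 libraries.

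H2-Q6 and H2-Q7 encode Qa-2, a class I molecule tied to the membrane by a lipid anchor. H2-Q6 (ENSMUSG00000073409, protein-coding, chromosome 17, 35424850 to 35430055, plus strand, GRCm38) and H2-Q7 (ENSMUSG00000060550, protein-coding, chromosome 17, 35439155 to 35443773, plus strand) lie next to each other. Their summed level was 469.7, 390.3 and 332 CPM in WT bone marrow replicates 1 to 3, and 831, 1109.9 and 754 CPM in ETV6-RUNX1 bone marrow. In WT fetal liver it was 4.22, 5.404 and 3.68 CPM, from 195, 323 and 237 reads. The WT fetal liver libraries were the lowest by far, well above the floor, and the other 3 groups were all at 332 CPM or more, with 402, 499 and 623 CPM in ETV6-RUNX1 fetal liver. The means were 397 ± 69.2 CPM (SD, n = 3, as for all means here) for WT and 898 ± 187 for ETV6-RUNX1 in bone marrow, and 4.43 ± 0.884 for WT and 508 ± 111 for ETV6-RUNX1 in fetal liver. In bone marrow the sum rose 2.26-fold with ETV6-RUNX1, a log2 fold change of (CPM + 1) of 1.17 (SE 0.19, limma adjusted p = 0.00149), and the genotypes did not overlap. Within ETV6-RUNX1 cells it fell in fetal liver against bone marrow by 0.82 on the log2 scale (SE 0.19, limma adjusted p = 0.00616). The contrasts that contain WT fetal liver are given as values: its mean was 89.6-fold below WT bone marrow and 115-fold below ETV6-RUNX1 fetal liver. In bulk libraries, fewer cells with a transcript and less of it per cell cannot be told apart.

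Taken separately, both genes had the low value. H2-Q6 averaged 1.66 ± 0.348 CPM in WT fetal liver and 176 ± 26.4 in WT bone marrow, a ratio of 106. H2-Q7 averaged 2.77 ± 0.5800 and 221 ± 45.8 CPM, a ratio of 79.6. With ETV6-RUNX1, H2-Q6 averaged 423 ± 99.2 CPM in bone marrow and 269.5 ± 48.6 in fetal liver, and H2-Q7 averaged 476 ± 88.3 and 238 ± 63.99. H2-Q6 made up 44.6% ± 2.76 of their sum in WT and 46.9% ± 1.39 in ETV6-RUNX1 bone marrow, and 37.5% ± 3.37 in WT and 53.4% ± 2.58 in ETV6-RUNX1 fetal liver. Both genes thus had reads counted to them in every library, and how many of these fit only 1 of the genes is not known. The share was higher in each ETV6-RUNX1 fetal liver library than in any bone marrow library of that genotype (exact permutation test, two-sided, p = 0.1, the smallest that 3 against 3 allow).

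**Figure D1:**
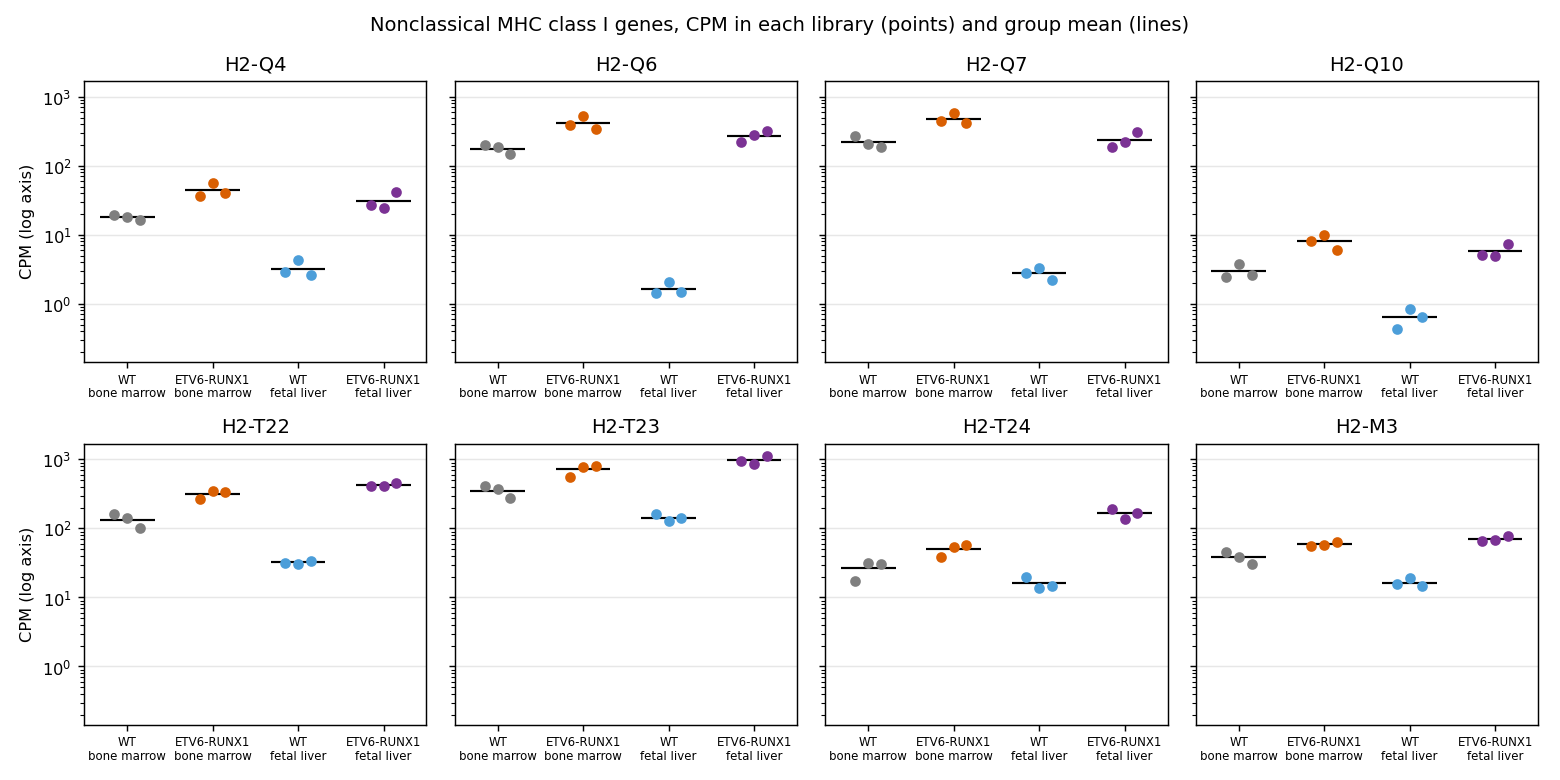
CPM of the 8 genes on a log axis, with a point for each of the 3 libraries of a group and a line at the group mean. H2-Q6 and H2-Q7 lie between 1.43 and 3.35 CPM in WT fetal liver and at 147 CPM or more in every other library, while H2-T23 stays at 127 CPM or more throughout.

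H2-Q4 and H2-Q10, the other Q genes of the group, were low in WT fetal liver as well. H2-Q4 (ENSMUSG00000035929, protein-coding, chromosome 17, 35379617 to 35385290, plus strand) was 19.3, 18.3 and 16.5 CPM in WT bone marrow and 36.6, 55.3 and 40.4 with ETV6-RUNX1. It was 2.85, 4.27 and 2.59 CPM in WT fetal liver and 26.8, 24.3 and 41.4 with ETV6-RUNX1. The genotypes did not overlap within either source. H2-Q4 rose with ETV6-RUNX1 by 1.22 (log2, SE 0.23, limma adjusted p = 0.00274) in bone marrow and by 2.89 (SE 0.23, limma adjusted p = 2.61e-07) in fetal liver. The second change was the larger, by 1.67 (SE 0.32, limma adjusted p = 0.00523). In WT cells H2-Q4 fell by 2.19 on the log2 scale in fetal liver against bone marrow (limma adjusted p = 2.31e-05), whereas in ETV6-RUNX1 cells the sources overlapped (-0.52, limma adjusted p = 0.1). An antisense gene, Gm11131, overlaps H2-Q4 and had 17.6 ± 3.61, 33.2 ± 4.14, 5.36 ± 1.02 and 22.6 ± 1.396 CPM in WT bone marrow, ETV6-RUNX1 bone marrow, WT fetal liver and ETV6-RUNX1 fetal liver. The pair shares 11.8% of the 100-base windows of H2-Q4, and since the use of strand in counting is not stated, reads of that stretch cannot be told apart.

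H2-Q10 encodes a secreted class I chain that is best known from the liver. H2-Q10 (ENSMUSG00000067235, protein-coding, chromosome 17, 35470089 to 35474563, plus strand) was the least abundant member. It was 2.46, 3.798 and 2.64 CPM in WT bone marrow, 8.08, 9.86 and 6.06 in ETV6-RUNX1 bone marrow, 0.432, 0.853 and 0.651 in WT fetal liver and 5.06, 4.85 and 7.29 in ETV6-RUNX1 fetal liver. The WT fetal liver values rest on 20, 51 and 42 reads, and the gene reached 1 CPM in 9 of 12 libraries. H2-Q10 rose with ETV6-RUNX1 by 1.18 (SE 0.22, limma adjusted p = 0.00337) in bone marrow and by 2.02 (SE 0.22, limma adjusted p = 9.23e-06) in fetal liver. Its difference between those changes was 0.85 (SE 0.32) and did not pass (limma adjusted p = 0.108), but on this scale a pseudocount of 1 shrinks so low a gene: with 0.1 the difference was 1.58 (limma adjusted p = 0.0388). Among 10 hepatocyte markers, Ttr, Serpina1a, Fgb and Ahsg were at or under 3 reads in all 12 libraries. Alb was at or under 3 reads in all but the ETV6-RUNX1 fetal liver group, where it reached at most 0.3599 CPM. The summed hepatocyte markers were 16.7 to 22.6 CPM in fetal liver and 26.9 to 40.1 in bone marrow.

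H2-T23 and H2-T22 encode chains that are read by receptors of innate lymphocytes. H2-T23 is the heavy chain of Qa-1, which presents leader peptides of other class I chains to the CD94-NKG2 receptors of natural killer cells, and H2-T22 is a ligand of certain gamma-delta T cell receptors. H2-T23 (ENSMUSG00000067212, protein-coding, chromosome 17, 36029773 to 36032855, minus strand) was 411, 374 and 278 CPM in WT bone marrow and 561, 788 and 802 in ETV6-RUNX1 bone marrow. It was 162, 127 and 142 CPM in WT fetal liver and 945, 870.1 and 1103 in ETV6-RUNX1 fetal liver. These 4 groups did not overlap, with WT fetal liver lowest and ETV6-RUNX1 fetal liver highest. H2-T23 rose with ETV6-RUNX1 by 1.02 (SE 0.18, limma adjusted p = 0.00193) in bone marrow and by 2.75 (SE 0.18, limma adjusted p = 4.34e-08) in fetal liver, a difference of 1.73 (SE 0.25, limma adjusted p = 0.000748). Fetal liver was lower than bone marrow in WT cells (-1.28, limma adjusted p = 0.000269), and in ETV6-RUNX1 cells the difference of 0.45 did not pass (limma adjusted p = 0.0688). It passed (0.63, limma adjusted p = 0.0305) with median-of-ratios scaling.

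H2-T22 (ENSMUSG00000056116, protein-coding, chromosome 17, 36037128 to 36042747, minus strand) was 159.7, 141 and 102 CPM in WT bone marrow, 269.7, 345 and 339 in ETV6-RUNX1 bone marrow, 32.1, 30.3 and 34.2 in WT fetal liver and 406, 419 and 460.1 in ETV6-RUNX1 fetal liver. It had the same order of groups as H2-T23, again with no overlap. The rise with ETV6-RUNX1 was 1.25 (SE 0.16, limma adjusted p = 0.00029) in bone marrow and 3.69 (SE 0.16, limma adjusted p = 1.83e-09), or 13.3-fold, in fetal liver. The changes differed by 2.44 (SE 0.22, limma adjusted p = 2.75e-05). In WT cells H2-T22 was 4.16-fold lower in fetal liver (limma adjusted p = 2.25e-06). In ETV6-RUNX1 cells the difference of 0.44 in the other direction did not pass (limma adjusted p = 0.0529), and with median-of-ratios scaling it did (0.61, limma adjusted p = 0.0219).

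H2-T24 stood apart from the Q genes in its pattern. H2-T24 (ENSMUSG00000053835, protein-coding, chromosome 17, 36005695 to 36020560, minus strand) was 17.6, 31.7 and 30.4 CPM in WT bone marrow and 38.5, 54.2 and 57.1 in ETV6-RUNX1 bone marrow. It was 20.1, 13.7 and 14.6 CPM in WT fetal liver and 194, 138 and 169 in ETV6-RUNX1 fetal liver. The WT sources overlapped (-0.66, limma adjusted p = 0.0886), and the ETV6-RUNX1 fetal liver libraries were all above the other 9. H2-T24 rose by 0.91 (SE 0.23, limma adjusted p = 0.0155) with ETV6-RUNX1 in bone marrow and by 3.30 (SE 0.23, limma adjusted p = 9.56e-08), or 10.3-fold, in fetal liver, which differed by 2.38 (SE 0.33, limma adjusted p = 0.000571). Within ETV6-RUNX1 cells it rose 3.34-fold in fetal liver against bone marrow (log2 1.73, SE 0.23, limma adjusted p = 8.19e-05). The call in bone marrow was lost without ETV6-RUNX1 bone marrow replicate 2 (0.84, limma adjusted p = 0.061). Without WT bone marrow replicate 1 the WT sources differed (-0.92, limma adjusted p = 0.00846).

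H2-M3 binds peptides that start with N-formylmethionine, as bacterial and mitochondrial proteins do, and had the smallest changes in bone marrow. H2-M3 (ENSMUSG00000016206, protein-coding, chromosome 17, 37270220 to 37274484, plus strand) was 45.5, 38.6 and 30.8 CPM in WT bone marrow and 55.7, 58.3 and 63.3 in ETV6-RUNX1 bone marrow. It was 15.7, 18.9 and 14.6 CPM in WT fetal liver and 66.01, 68.8 and 77.02 in ETV6-RUNX1 fetal liver. The groups did not overlap, with the same order as for H2-T23 and H2-T22. H2-M3 rose with ETV6-RUNX1 by 0.63 (SE 0.16, limma adjusted p = 0.0153) in bone marrow and by 2.05 (SE 0.16, limma adjusted p = 2.58e-07) in fetal liver. These changes differed by 1.42 (SE 0.23, limma adjusted p = 0.00157). The bone marrow call was lost in 6 of 22 alternatives, with median-of-ratios scaling (0.47, limma adjusted p = 0.0618) and without WT bone marrow replicate 3 (0.49, limma adjusted p = 0.0603) among them. In WT cells H2-M3 fell by 1.17 on the log2 scale in fetal liver (limma adjusted p = 0.000265), and in ETV6-RUNX1 cells the sources differed by 0.25 (limma adjusted p = 0.26).

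In bone marrow, ETV6-RUNX1 cells thus had higher levels of all 7 rows of the group (7 of 7 called higher), where 14.4% of the 14270 genes tested were called higher. The median log2 fold change was 1.17 over the members and 0.13 over all genes. In fetal liver all 6 rows that could be tested were higher, against 24.8% of all genes, with a median of 2.82 against 0.08. The genotypes did not overlap in any of these rows in either source, as for 23.6% of all genes in bone marrow and 32.3% in fetal liver. Fetal liver was lower than bone marrow in 5 of 6 rows among WT cells, against 7.76% of all genes. Among ETV6-RUNX1 cells 1 of 7 rows was higher (10.4% of all genes) and 1 lower (18.2%). The difference between the genotype changes was called in 5 of 6 rows, each larger in fetal liver, against 5.56% of all genes. The members were put together with such results known, so these counts describe them.

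Other scalings left every member's direction as it was but moved the background. Median-of-ratios scaling brought the middle log2 change over all genes (its median) from 0.13 to -0.001 for ETV6-RUNX1 against WT in bone marrow and from -0.158 to 0 for fetal liver against bone marrow in ETV6-RUNX1 cells. The share of calls that were higher moved from 74.5% to 50.6% in the first and from 36.3% to 58.7% in the second. It moved from 30.3% to 41% for the sources in WT cells and from 60.5% to 74.5% for the difference between the genotype changes. Quantile normalization moved it from 57.6% to 42.1% for the genotypes in fetal liver, with the median of all genes going from 0.078 to -0.102.

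**Figure D2:**
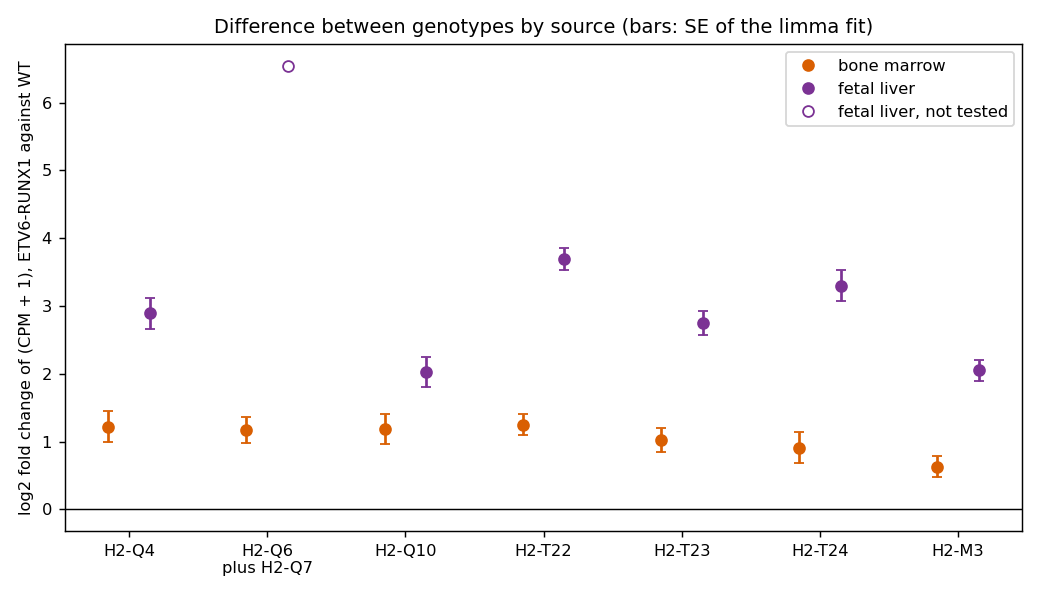
Log2 fold change of (CPM + 1), ETV6-RUNX1 against WT, for each row in bone marrow and fetal liver, with bars for the SE of the limma fit and an open symbol for the untested value. The bone marrow changes run from 0.63 to 1.25 and the tested fetal liver changes from 2.02 to 3.69, with H2-Q6 plus H2-Q7 at 6.54.

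The makeup of the group's transcripts differed between WT fetal liver and the rest. The 8 genes together were 972 ± 168 CPM in WT and 2095 ± 311 in ETV6-RUNX1 bone marrow, and 217 ± 18.9 in WT and 2183 ± 258 in ETV6-RUNX1 fetal liver. The ETV6-RUNX1 sources overlapped in this sum. H2-Q6 plus H2-Q7 were 40.9% ± 1.55 of it in WT and 42.9% ± 5.43 in ETV6-RUNX1 bone marrow, and 2.07% ± 0.542 in WT and 23.1% ± 3.03 in ETV6-RUNX1 fetal liver. H2-T23 was 36.4% ± 1.22, 34.2% ± 4.11, 66.2% ± 2.48 and 44.6% ± 1.61 in the same order. By mean CPM, H2-T23 was the most abundant single gene of the 8 in every group of libraries. Its own level was lowest in WT fetal liver (144 ± 17.5 CPM). The larger share there goes with the low H2-Q6 and H2-Q7 by which the genes were chosen.

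Levels between genes were compared per kilobase of exon. In WT bone marrow the order was H2-T23 (123 ± 23.7 CPM per kb), H2-Q6 (84.6 ± 12.7), H2-Q7 (51.8 ± 10.7), H2-T22 (39.3 ± 8.57), H2-M3 (26.6 ± 5.09), H2-T24 (12.2 ± 3.58), H2-Q4 (6.95 ± 0.548) and H2-Q10 (0.682 ± 0.167), and the SDs of H2-Q7 and H2-T22 overlapped, as did those of H2-T22 and H2-M3. ETV6-RUNX1 bone marrow had the same order of means, from 248 ± 46.7 CPM per kb for H2-T23 and 203 ± 47.6 for H2-Q6 down to 1.84 ± 0.437 for H2-Q10. There H2-T23 and H2-Q6 overlapped within their SDs, as did H2-Q7 (112 ± 20.7) and H2-T22 (93.1 ± 12.3). In WT fetal liver H2-T23 (49.8 ± 6.06 CPM per kb) was followed by H2-M3 (11.4 ± 1.56), H2-T22 (9.44 ± 0.5705) and H2-T24 (7.403 ± 1.599), each within the SDs of its neighbour. H2-Q4 (1.25 ± 0.347), H2-Q6 (0.795 ± 0.167) and H2-Q7 (0.6504 ± 0.136) followed, also within the SDs of their neighbours, and H2-Q10 (0.148 ± 0.0484) was last. In WT fetal liver all 4 Q genes stood below all T and M genes of the group. For H2-Q6 and H2-Q7 this is the low level by which the genes were chosen. By their means, H2-Q4 and H2-Q10 stood below the T and M genes in all 4 groups of libraries. In ETV6-RUNX1 fetal liver H2-Q6 (129 ± 23.3 CPM per kb) and H2-T22 (125 ± 8.23) were alike within their SDs and followed H2-T23 (337 ± 41.1). H2-T24 (76.4 ± 12.8), H2-Q7 (mean 55.9) and H2-M3 (49.1 ± 3.98) came after them, each within the SDs of its neighbour, ahead of H2-Q4 (11.9 ± 3.56) and H2-Q10 (1.32 ± 0.311).

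The classical genes H2-K1 and H2-D1 changed in the same directions, so each member was also set against their sum. H2-K1 was 1195 ± 147, 2533 ± 348, 353 ± 52.1 and 1899 ± 334 CPM in WT bone marrow, ETV6-RUNX1 bone marrow, WT fetal liver and ETV6-RUNX1 fetal liver, and H2-D1 was 1756 ± 575, 4333 ± 408, 785 ± 65.2 and 3628 ± 747. Per 100 CPM of that sum, H2-Q6 plus H2-Q7 were 19.7, 11.1 and 11.3 in WT and 12.9, 14.4 and 11.8 in ETV6-RUNX1 bone marrow, which overlapped (exact permutation p = 1.000). They were 0.387 ± 0.0367 in WT fetal liver and 9.16 ± 0.4705 in ETV6-RUNX1 fetal liver, ratios of 36.2 to WT bone marrow and 23.7 between the genotypes. Set against the classical genes, H2-Q6 plus H2-Q7 thus stayed low in WT fetal liver. This is the low level by which the genes were chosen, so these ratios are a description. Of the other rows, H2-Q4, H2-Q10 and H2-T22 were also lower per classical transcript in WT fetal liver than in WT bone marrow (ratios of 0.446, 0.563 and 0.607), H2-T23 and H2-M3 overlapped (1.03 and 1.06), and H2-T24 was 1.61-fold higher. The 6 other rows also overlapped between the genotypes in bone marrow, except H2-M3, which was 1.55-fold lower with ETV6-RUNX1 (exact permutation p = 0.1). In fetal liver H2-Q4, H2-Q10, H2-T22, H2-T23 and H2-T24 were 1.97-, 1.84-, 2.75-, 1.39- and 2.17-fold higher per classical transcript with ETV6-RUNX1, each without overlap, while H2-M3 overlapped (1.44 ± 0.0487 in WT and 1.296 ± 0.1403). H2-T24 was 4.26-fold higher in ETV6-RUNX1 fetal liver than in ETV6-RUNX1 bone marrow on this scale. No p below 0.1 is possible for these ratios with 3 libraries against 3. The share of all genes without overlap was not computed on this scale, so these separations only describe the members. On plain CPM, 32.3% of all genes were higher with ETV6-RUNX1 in fetal liver without overlap.

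**Figure D3:**
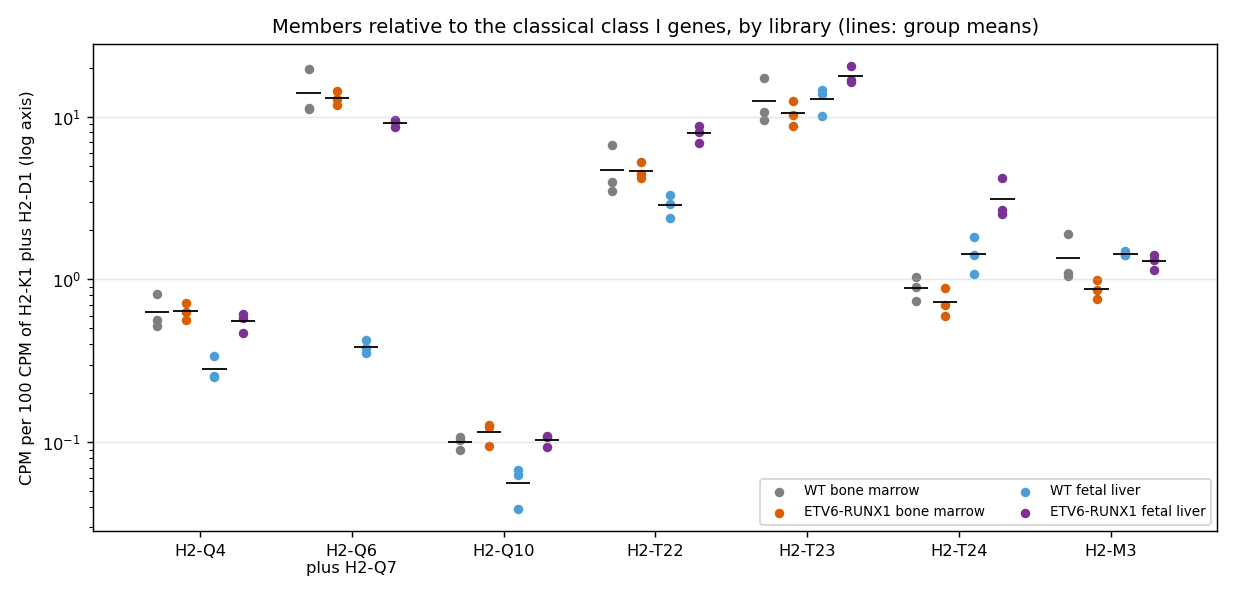
CPM of each row per 100 CPM of H2-K1 plus H2-D1 in each library, on a log axis, with lines at group means. H2-Q6 plus H2-Q7 lie between 8.65 and 19.7 in all groups but WT fetal liver, where they lie between 0.355 and 0.427.

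Along the H2 region the difference between the WT sources was largest at H2-Q6 and H2-Q7 and their neighbour. For H2-Q6 and H2-Q7 this is the low level by which the genes were chosen, so the peak is a description. In chromosome order, the mean CPM of WT bone marrow over WT fetal liver was 2.24 for H2-D1, 2.39 for H2-Q1, 2.25 for H2-Q2, 5.58 for H2-Q4, 21.3 for H2-Q5, 106 for H2-Q6, 79.6 for H2-Q7 and 4.59 for H2-Q10. Further along it was 1.64 for H2-T24, 2.46 for H2-T23, 4.16 for H2-T22, 5.16 for H2-T10 and 2.34 for H2-M3. In ETV6-RUNX1 cells the same ratio was 1.16 for H2-Q1, 1.43 for H2-Q2 and H2-Q4, 1.72 for H2-Q5, 1.57 for H2-Q6, 1.996 for H2-Q7 and 1.396 for H2-Q10, and it was below 1 for the T and M members, from 0.299 for H2-T24 to 0.837 for H2-M3. The Q members were thus higher in bone marrow in both genotypes by the means, and the T and M members in WT cells but not in ETV6-RUNX1 cells. H2-Q5, annotated as a polymorphic pseudogene between H2-Q4 and H2-Q6, was 22.02 ± 1.84, 49.1 ± 10.6, 1.04 ± 0.0372 and 28.6 ± 6.95 CPM in WT bone marrow, ETV6-RUNX1 bone marrow, WT fetal liver and ETV6-RUNX1 fetal liver. In WT cells H2-Q5 fell by 3.50 on the log2 scale in fetal liver (limma adjusted p = 5.93e-08). It shares 170 of the 4858 100-base windows of H2-Q7 (3.5%), so its level is not fully separate. H2-Q5 has only 1591 exon bases, so the shared part of its own sequence is larger than that. H2-Q7 had the higher mean in every group, and how far its reads entered the level and ratio of H2-Q5 was not tested.

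**Figure D4:**
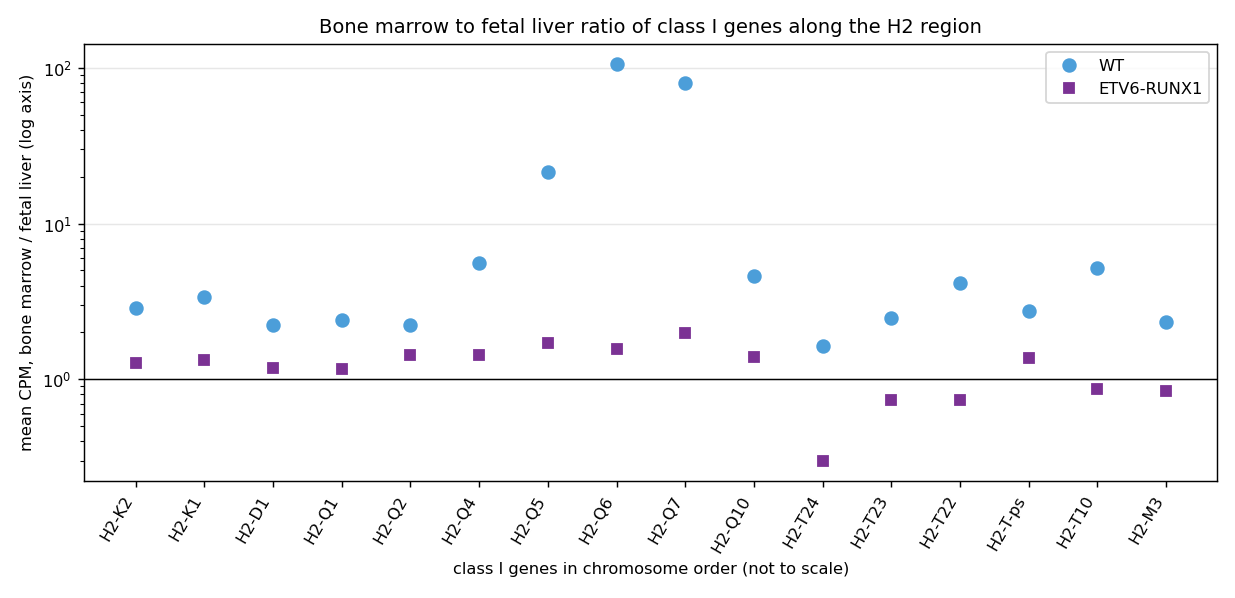
Ratio of mean CPM, bone marrow over fetal liver, for class I genes of at least 1 CPM in some group, in chromosome order and on a log axis, for WT and ETV6-RUNX1 cells. The WT ratio peaks at H2-Q6 (106) with H2-Q5 (21.3) and H2-Q7 (79.6) beside it, and the ETV6-RUNX1 ratio runs from 0.299 to 1.996. The genes were chosen for the low H2-Q6 and H2-Q7 in WT fetal liver, so their peak is a description.

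Of 25 further nonclassical class I genes listed, 17 were in the table and 4 were high enough to test: H2-Q1, H2-Q2, H2-Q5 and H2-T10. All 4 were higher with ETV6-RUNX1 in both sources, by a median of 1.07 in bone marrow and 2.48 in fetal liver. Of all genes, 14.4% and 24.8% were called higher there. The changes differed between the sources for H2-Q5 (2.73, limma adjusted p = 5.88e-05) and H2-T10 (2.42, limma adjusted p = 6.43e-05), beside 5.56% of all genes. They did not pass for H2-Q1 (0.73, limma adjusted p = 0.209) and H2-Q2 (0.09, limma adjusted p = 0.877). Among the WT sources 3 of 4 were lower in fetal liver, beside 7.76% of all genes. Among the ETV6-RUNX1 sources 1 was lower (H2-Q5, -0.76, limma adjusted p = 0.0109), beside 18.2%. The listed genes of the H2-M1 to H2-M11 series other than H2-M3 and H2-M5 averaged at most 0.0516 CPM in any group, and H2-M5 at most 0.129.

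The members differ in how far their reads can be assigned. Of all 100-base windows of their GENCODE transcripts, 13% in H2-Q6 and 12% in H2-Q7 occur in another gene, including 8.36% of H2-Q6 windows that occur in H2-Q7. In H2-T22 31.5% do, of which 24% of all windows are shared with the antisense gene A930015D03Rik and 6.92% with H2-T10. A930015D03Rik, which also overlaps H2-T23 and H2-T24, was at most 0.742 CPM in any library. H2-Q4 (14.1%) and H2-Q10 (8.01%) have shared windows too, H2-T23 has 3.15%, and H2-T24 and H2-M3 have 0. How reads that fit several genes were counted is not stated, so the levels of H2-Q4, H2-Q6, H2-Q7, H2-Q10 and H2-T22 are uncertain to that extent.

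The partners that class I chains need were listed next. Of 16 genes for the classical chains, beta-2-microglobulin and peptide loading, all tested, 9 were higher with ETV6-RUNX1 in bone marrow and 13 in fetal liver, where 14.4% and 24.8% of all genes were. Their median log2 fold changes were 0.75 and 1.47, against 0.13 and 0.08 over all genes. Calr and Canx, chaperones of class I folding, were among the 7 and 3 that did not pass. B2m, the light chain shared by the members, was 3874 ± 1053, 6173 ± 455, 1306 ± 158 and 5460.4 ± 1097 CPM in WT bone marrow, ETV6-RUNX1 bone marrow, WT fetal liver and ETV6-RUNX1 fetal liver. B2m rose by 0.70 (limma adjusted p = 0.0208) in bone marrow and by 2.05 (limma adjusted p = 1.67e-06) in fetal liver. The peptide transporter gene Tap1 rose by 2.97 in fetal liver (limma adjusted p = 8.67e-09), and its partner Tap2 by 1.48 in bone marrow (limma adjusted p = 0.00135). Between the ETV6-RUNX1 sources Tap2 was the only one of the 16 called, and was lower in fetal liver (-1.55, limma adjusted p = 0.000296), as were 18.2% of all genes. Between the WT sources 10 of 16 were lower in fetal liver, beside 7.76% of all genes. The genotype changes differed for 7 of 16, each larger in fetal liver, beside 5.56% of all genes.

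Genes for the factors that act at class I promoters were listed as well, 18 in all and all tested. With ETV6-RUNX1, 8 of 18 were higher in bone marrow (14.4% of all genes), and 10 were higher (24.8% of all genes) and 1 lower (Nfyb, -0.49, limma adjusted p = 0.00615) in fetal liver. There 2607 of the 14270 genes tested were called lower. Nlrc5, the class I coactivator, was 44.1 ± 8.83, 69.9 ± 12.8, 8.100 ± 1.73 and 108 ± 19.4 CPM in WT bone marrow, ETV6-RUNX1 bone marrow, WT fetal liver and ETV6-RUNX1 fetal liver, the same order of groups as for H2-T22, H2-T23 and H2-M3. Nlrc5 was lower in fetal liver among WT cells (-2.31, limma adjusted p = 5.42e-06). Irf7 was 67.96 ± 48.9, 557 ± 267, 19.3 ± 0.651 and 1489 ± 279 CPM in that order of groups. The genotype changes differed for 6 of 18, each larger in fetal liver, beside 5.56% of all genes. Between the WT sources 5 were lower in fetal liver, beside 7.76% of all genes. There 1 was higher (Irf8, 1.41, limma adjusted p = 0.00529), as were 482 of the 14270 genes tested. Between the ETV6-RUNX1 sources 6 were higher and 3 lower, beside 10.4% and 18.2% of all genes.

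Of 18 interferon ligands, receptors and their kinases, 9 were high enough to test. With ETV6-RUNX1, 4 of 9 were higher in bone marrow and 6 of 9 in fetal liver, beside 14.4% and 24.8% of all genes. Ifnb1, the gene of interferon beta, averaged 3.31 ± 1.37 CPM in ETV6-RUNX1 fetal liver and 0.1803 ± 0.112 in ETV6-RUNX1 bone marrow, and was under the floor in the WT means (0.0254 and 0.0288 CPM). Ifnb1 entered the fit through ETV6-RUNX1 fetal liver alone, so its direction there is a description. It is among the 6 counted as higher in fetal liver, where its call is not a test. The genotype change of Jak2 was larger in fetal liver (0.84, limma adjusted p = 0.0258). Between the ETV6-RUNX1 sources 2 were counted as higher in fetal liver, Jak2 and again Ifnb1, beside 10.4% of all genes. Between the WT sources 1 was lower in fetal liver (Ifngr1, -0.41, limma adjusted p = 0.0476), beside 7.76% of all genes. Whether these levels bear on the members was not tested.

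Receptors that read nonclassical class I molecules were mostly at or near 0. Of 12 listed, 10 were in the table and 1 was tested, Pirb, an inhibitory receptor for class I on myeloid and stem cells. Klrd1, Klrc1, Klrc2 and Klrc3, for the CD94-NKG2 receptors of the H2-T23 product, averaged at most 0.0386 CPM in any group. Pirb was 0.544 ± 0.07298, 6.81 ± 3.22, 1.33 ± 0.474 and 26.2 ± 6.897 CPM in WT bone marrow, ETV6-RUNX1 bone marrow, WT fetal liver and ETV6-RUNX1 fetal liver. Pirb rose by 2.26 (limma adjusted p = 0.000217) in bone marrow and by 3.54 (limma adjusted p = 2.33e-07) in fetal liver, and was higher in fetal liver among ETV6-RUNX1 cells (1.85, limma adjusted p = 0.000187).

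Class I-like genes outside the H2 region were also read. Of 16 listed, 12 were in the table and 8 were tested. With ETV6-RUNX1 2 of 8 were higher in bone marrow and 6 of 8 in fetal liver, beside 14.4% and 24.8% of all genes, with medians of 0.43 and 0.77 against 0.13 and 0.08. The highest rise in fetal liver was that of Mr1, which presents vitamin metabolites to T cells (1.46, limma adjusted p = 0.000117). Cd1d1, which presents lipids, was 56.5 ± 7.53 and 59.3 ± 2.33 CPM in WT and ETV6-RUNX1 bone marrow and 37.4 ± 7.51 and 37.3 ± 7.09 in fetal liver, and was lower in fetal liver in both genotypes (-0.59, limma adjusted p = 0.0399, and -0.67, limma adjusted p = 0.0105). Among the WT sources 4 of 8 were lower in fetal liver, beside 7.76% of all genes. There 1 was higher, as were 482 of the 14270 genes tested. Among the ETV6-RUNX1 sources 3 were lower and 1 higher, beside 18.2% and 10.4% of all genes. The gene counted as higher in both was Raet1d. It averaged 0.0737 ± 0.0882 and 0.375 ± 0.3703 CPM in WT and ETV6-RUNX1 bone marrow, and 1.12 ± 0.4496 and 2.31 ± 0.239 in fetal liver. Raet1d entered the fit through fetal liver libraries alone, so its direction between the sources is a description. It is also among the 6 counted as higher with ETV6-RUNX1 in fetal liver, where its call is not a test either.

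The genes most like H2-Q6 plus H2-Q7 over the 12 libraries, by Pearson's r of log2(CPM + 1) among 10485 genes and leaving out H2 genes, were Casp12 (0.987), Osbpl9 (0.987), Casp1 (0.983), Snx10 (0.982) and Psmb9 (0.976). The 12 libraries share their groups, so these values describe the group pattern. Casp12 averaged 146 ± 13.7, 168 ± 18.1, 35.3 ± 2.61 and 147 ± 30.9 CPM in WT bone marrow, ETV6-RUNX1 bone marrow, WT fetal liver and ETV6-RUNX1 fetal liver, so that it too was low in WT fetal liver alone, over a smaller range. Snx10 averaged 175 ± 11.8, 220.0 ± 7.31, 90.7 ± 6.29 and 181 ± 17.5 CPM. Among the members, r with H2-Q6 plus H2-Q7 was 0.971 for H2-Q4, 0.925 for H2-Q10, 0.921 for H2-T22, 0.926 for H2-M3, 0.879 for H2-T23 and 0.627 for H2-T24. The closest pair was H2-T22 and H2-T23 (0.992).

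Markers of other cells that the cultures could hold were read beside these results. The 8 macrophage markers summed to at least 90.9 CPM in ETV6-RUNX1 and at most 57.7 CPM in WT libraries, and Cd68 made up most of these sums (89.7 ± 11.8 and 105 ± 4.95 CPM in ETV6-RUNX1 bone marrow and fetal liver, 41.95 ± 11.3 and 43.5 ± 4.34 in WT). Csf1r was 10.02 ± 3.299 CPM in ETV6-RUNX1 fetal liver and 0.824 ± 0.525 in WT fetal liver, and Adgre1 1.24 ± 0.557 and 0.03196 ± 0.0324, while C1qa was at or under 3 reads in every library. The 5 erythroid markers summed to 213 to 582 CPM in bone marrow, 673 to 935 in WT fetal liver and 1302 to 2044 in ETV6-RUNX1 fetal liver, and the 6 endothelial and stromal markers to 146 to 177 CPM in ETV6-RUNX1 fetal liver and 64.5 to 105 elsewhere. The 8 T and natural killer cell markers summed to at most 2.32 CPM, with Cd3e and Ncr1 at or under 3 reads in every library, and the 6 B cell markers to 55.4 to 81.7 CPM in ETV6-RUNX1 fetal liver and 38.5 to 52.5 elsewhere, nearly all from Cd79b. The part of the macrophage, erythroid, stromal and B cell levels in the members' differences was not tested.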

How the data were processed

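RNA of 12 libraries of cultured mouse HSCs was sequenced as 100-base read pairs from a stranded total RNA kit, per the labels' protocols. The authors deposited CPM per gene in a single table. Per the submitters' processing notes, STAR 2.5.1a, featureCounts 1.4.6-p5, Salmon 0.8.2, Subread, bcl2fastq, edgeR and limma were named with GRCm38, without their roles; the annotation and the use of strand are not given in the sources used here. Of 40757 entries, 276 repeats were dropped. CPM steps gave whole reads for 100.0% of values (tolerance 0.01), and totals of 32.3 to 64.5 M. Intervals and floors cover counting error only. No libraries were identical.

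H2-Q6 and H2-Q7 were summed, CPM was transformed as log2(CPM + 1), and 14270 genes that reached 1 CPM in 3 or more of 12 libraries were fitted with limma 3.58.1 (R 4.3.3; trend, not robust; 4 group coefficients, 8 residual degrees of freedom; two-sided, Benjamini-Hochberg over all genes, threshold 0.05). Fold changes on this scale understate low genes. Contrasts of H2-Q6 and H2-Q7 with WT fetal liver were not tested. The fit was tested on simulated data. Single ratios were compared by exact permutation. Positions and exon lengths come from GENCODE M21 (GRCm38), in which 40254 gene IDs were found. Alternatives were the pseudocount, gene filters, scalings, edgeR 4.0.16 and DESeq2 1.42.0 on recovered reads, fits of only the libraries compared, the replicate number as a block, separate H2-Q6 and H2-Q7 rows, and leaving out each library.

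The members and lists were chosen with earlier results of these data known. Named beside the members were, for each list and comparison, up to 3 called genes per direction by size of change, other nonclassical genes of at least 1 CPM in some group, H2-K1, H2-D1, B2m and the 5 genes most like H2-Q6 plus H2-Q7. Gene levels given outside this rule (receptor and low H2-M genes, Cd1d1, Ddx3y) were chosen after their values were seen. A listed gene is counted in its list but not reported here.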

Additional observations from a re-analysis of the deposited data

Results flagged for a closer look

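The change with ETV6-RUNX1 was larger in fetal liver than in bone marrow for 5 of the 6 rows in which the difference itself was tested. Of all genes tested, 5.56% were called in that direction. The log2 difference between the changes was 1.67 for H2-Q4 (limma adjusted p = 0.00523), 2.44 for H2-T22 (limma adjusted p = 2.75e-05), 1.73 for H2-T23 (limma adjusted p = 0.000748), 2.38 for H2-T24 (limma adjusted p = 0.000571) and 1.42 for H2-M3 (limma adjusted p = 0.00157). For each, all 3 ETV6-RUNX1 libraries were above all 3 WT libraries in both sources, as for 23.6% of all genes in bone marrow and 32.3% in fetal liver. H2-T24 differs from the other 4 in where the difference sits: its WT levels overlapped between the sources, and its ETV6-RUNX1 levels were 167 ± 27.8 CPM in fetal liver and 49.9 ± 9.997 in bone marrow (SD, n = 3). Without WT bone marrow replicate 1 its WT sources differed (-0.92, limma adjusted p = 0.00846). H2-T22, H2-T23 and H2-M3 were also higher in ETV6-RUNX1 fetal liver than in ETV6-RUNX1 bone marrow without overlap, by smaller changes that did not pass.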

How the results depend on the processing

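Of 691 repeats of a tested member result under another setting, 667 kept direction and side of the threshold, 8 lost the call, 16 gained one and 0 reversed. The count of genes called for ETV6-RUNX1 against WT in bone marrow went from 2761 to 1594 with only the libraries compared, and to 1519 to 2923 when a library was left out (1519 without ETV6-RUNX1 bone marrow replicate 2). Members called between the ETV6-RUNX1 sources went from 2 to 4 with median-of-ratios scaling, edgeR and DESeq2, and to 2 to 4 when a library was left out, with H2-T22 and H2-T23 added without WT bone marrow replicate 1 or 3. Genes called between the WT sources went from 1590 to 867 to 2780 (2780 and 867 without WT bone marrow replicates 1 and 2, and 903 without WT fetal liver replicate 3). Genes called for the difference between the genotype changes went from 1310 to 766 with all genes of any value, and to 729 to 2331 when a library was left out (2331 and 729 without WT bone marrow replicates 1 and 2, 765 and 736 without WT fetal liver replicates 2 and 3, and 846 without ETV6-RUNX1 fetal liver replicate 1). H2-Q10 gained a call there with edgeR (1.75, adjusted p = 0.0262) and DESeq2 (1.77, adjusted p = 0.0024). H2-Q4 gained one between the ETV6-RUNX1 sources without ETV6-RUNX1 fetal liver replicate 3 (-0.74, limma adjusted p = 0.0263). H2-T24 lost its bone marrow call with all genes of any value (limma adjusted p = 0.0553). The cause was not tested. Replicate numbers did not pair the libraries, since same-numbered libraries correlated at -0.442 to 0.221, and no set of pairs was above 0.1 throughout. With the replicate number as a block, members called stayed at 7, 2, 6, 5 and 5 in the order of bone marrow genotypes, ETV6-RUNX1 sources, fetal liver genotypes, WT sources and the difference, and genes called were 2333, 3738, 5837, 1424 and 1032. Depth limits H2-Q10 most, with 20 to 51 reads in WT fetal liver.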
